A study of Mus musculus with 9 samples.

Results

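Named genes that decide what becomes of pyruvate were followed across 9 libraries: the pyruvate dehydrogenase kinases Pdk1, Pdk2, Pdk3 and Pdk4, the pyruvate dehydrogenase subunit gene Pdha1, the mitochondrial carrier gene Mpc1, the lactate dehydrogenase genes Ldha and Ldhb, and the plasma membrane carriers Slc16a1 and Slc16a3. They are 10 of the 52408 genes measured, and they were listed by name with earlier results of these data known. Total RNA came from MIN6 cells, derived from a mouse insulinoma, which secrete insulin and serve as a model of the pancreatic beta cell. The groups were cells overexpressing Nr4a1 and given EGCG, cells overexpressing Nr4a1, and untransfected control cells, with 3 libraries each. Nr4a1 is an orphan nuclear receptor that acts as a transcription factor, and EGCG is epigallocatechin gallate, a catechin of green tea. The sources used here give neither the transfection method nor the dose and time of EGCG. Whether the triplicates were separate cultures is not in the labels, so p-values set group differences only against the spread among these libraries.

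Pyruvate made by glycolysis can enter mitochondria through a carrier made of Mpc1 and Mpc2 and be turned into acetyl-CoA by the pyruvate dehydrogenase complex. The Pdk kinases switch that complex off by phosphorylating its E1 alpha subunit, which Pdha1 encodes, and the phosphatases Pdp1 and Pdp2 switch it on again. The other route is reduction to lactate by lactate dehydrogenase and export by the monocarboxylate carriers. Mature beta cells are known for very low lactate dehydrogenase A and Slc16a1, which couples glucose use tightly to mitochondrial metabolism. Cultured insulinoma lines often express these genes.

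Levels are in TPM, a relative transcript abundance that is corrected for length, as the authors deposited them and summed here per gene. TPM keeps no depth, so the number of reads behind a level is unknown and no counting interval can be given. Changes are given as the difference between group means of log2(TPM + 1), a scale that understates changes of low genes. The test took the 11950 genes that reached 1 TPM in 3 or more libraries. Of the 10 genes, 9 passed, each with at least 1 TPM in all 9 libraries. Pdk4, the kinase gene that fasting induces in muscle and liver, was listed at 0 TPM in every EGCG-treated and every overexpressing library and at 0.04, 0.03 and 0.01 TPM in the control libraries, and was not tested.

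The targeted gene followed the labels. Nr4a1 was at 53.9 ± 7.35 TPM in EGCG-treated overexpressing cells, 138.7 ± 23.1 TPM in overexpressing cells and 0.723 ± 0.0814 TPM in control cells (SD, n = 3 each). EGCG-treated cells thus also had less Nr4a1 than the cells they are set against, and the EGCG and the lower Nr4a1 cannot be told apart, nor can transfection and Nr4a1 in the comparison with untransfected cells. All 11 beta cell markers examined reached 1 TPM in some library, though Slc2a2 was at 0.64, 0.81 and 0.49 TPM in overexpressing cells. Their summed level was 4063 to 4402 TPM in EGCG-treated cells, 5878 to 6158 TPM in overexpressing cells and 3806 to 3953 TPM in control cells. Iapp and Ins1 made up most of it, and the markers did not move together. In overexpressing against control cells 8 were higher and 1, Mafa, lower, against 38.2% and 21.3% of all tested genes. In EGCG-treated against control cells 3 were higher and 5 lower, with Mafa leading, against 11.1% and 7.10% (limma, adjusted p under 0.05). Of 8 markers of other islet cells only Gcg and Irx2 reached 1 TPM, and the list summed to 294.2 to 326.8, 729.8 to 811.0 and 318.8 to 336.1 TPM in the same order of groups. Gcg made up most of that sum, while Irx2 was at 2.76, 2.44 and 3.50 TPM in that order. Of 8 acinar and duct markers only Krt7 reached 1 TPM, Prss1 was at 0 throughout, and the sums were 12.1 to 14.4, 10.4 to 12.1 and 11.6 to 17.6 TPM. None of 9 fibroblast, endothelial and blood cell markers reached 1 TPM, with sums of 0.66 to 0.80, 0.41 to 0.54 and 1.04 to 1.80 TPM. The part of these shifts in the results that follow was not tested.

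The first comparison asks what Nr4a1 overexpression does to MIN6 cells. In overexpressing cells 7 of the 9 tested genes were lower than in control cells, Slc16a3, Pdk1 and Ldha by the widest margins, and 1, Ldhb, was higher, while Mpc1 did not pass the test. Across all tested genes 59.5% passed in this comparison, 21.3% as lower and 38.2% as higher (limma, Benjamini-Hochberg adjusted p under 0.05). The median log2 difference was -0.51 over the 9 genes and 0.10 over all tested genes. The libraries of both groups did not overlap for any of the 9 genes, 8 lower and 1 higher, against 65.0% of all tested genes, 23.6% lower and 41.4% higher. Among 11950 genes ranked by log2 difference, Slc16a3 stood 10th, Pdk1 17th and Ldha 54th from the lowest, and Ldhb stood 55th from the highest.

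The other comparison asks what EGCG does in overexpressing cells. With EGCG the same 7 genes were higher than in overexpressing cells without it and Ldhb was lower, against 53.0% of all tested genes passing, 18.8% as higher and 34.1% as lower. The median log2 difference was 0.45 over the 9 genes and -0.09 over all tested genes, and libraries did not overlap for 7 genes on the higher and 1 on the lower side, against 64.6% of all tested genes, 23.2% higher and 41.4% lower. From the highest, Slc16a3 ranked 2nd, Pdk1 10th and Ldha 37th, and Ldhb ranked 123rd from the lowest. Both comparisons use the same overexpressing libraries, so a library that stands apart there moves both in opposite directions.

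**Figure D1:**
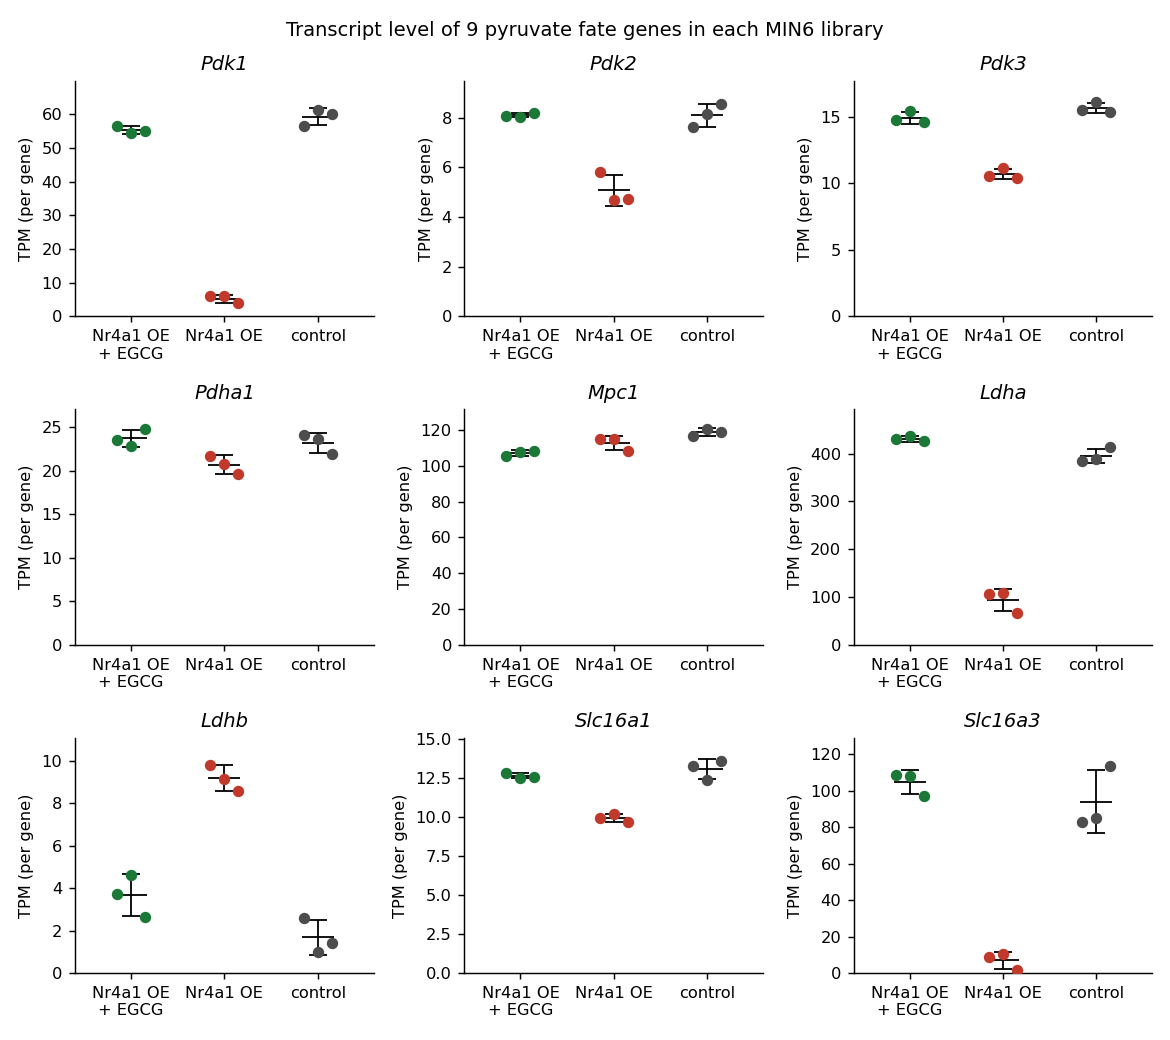
Level of each tested gene in TPM (vertical axes, starting at 0) in every library, with EGCG-treated overexpressing cells on the left, overexpressing cells in the middle and control cells on the right. Points are libraries and bars are mean and SD of 3. Overexpressing libraries sit below both other groups for Pdk1, Pdk2, Pdk3, Ldha, Slc16a1 and Slc16a3, above them for Ldhb, and close to them for Pdha1 and Mpc1.

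Pdk1 is the kinase gene best known as a target of the hypoxia-inducible factor. It was at 56.6, 54.5 and 55.1 TPM in EGCG-treated cells, 6.07, 5.94 and 3.93 TPM in overexpressing cells, and 56.5, 61.4 and 60.0 TPM in control cells. Overexpressing libraries were far below all 6 others, and replicate 3 was the lowest of them. By group means Pdk1 was 11.2-fold lower in overexpressing than in control cells, a log2 change of -3.27 ± 0.122 (SE; limma, Benjamini-Hochberg adjusted p = 2.38e-07). In EGCG-treated cells it was 10.4-fold higher than in overexpressing cells, a log2 change of 3.18 ± 0.122 (SE; adjusted p = 2.95e-07). In bulk RNA fewer cells expressing a gene and less RNA of it per cell cannot be told apart.

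The other kinases moved the same way by less. Pdk2, which is widely expressed, was at 8.08, 8.02 and 8.20 TPM in EGCG-treated cells, 5.81, 4.69 and 4.71 TPM in overexpressing cells, and 7.63, 8.13 and 8.55 TPM in control cells. Its log2 change was -0.59 ± 0.0766 in overexpressing against control cells (SE; limma, adjusted p = 0.000182) and 0.59 ± 0.0766 with EGCG against overexpression alone (adjusted p = 0.000241). Overexpressing libraries lay below the other groups without overlap. Pdk3, a kinase with high activity and little sensitivity to pyruvate, was at 14.8, 15.4 and 14.6 TPM in EGCG-treated cells, 10.5, 11.1 and 10.4 TPM in overexpressing cells, and 15.5, 16.1 and 15.3 TPM in control cells. The groups again did not overlap, with log2 changes of -0.51 ± 0.0481 (SE; limma, adjusted p = 2.73e-05) and 0.45 ± 0.0481 (SE; adjusted p = 8.50e-05).

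Since Pdk1 moved most, the make-up of the family shifted. Summed kinase TPM was 78.4 ± 0.926 in EGCG-treated cells, 21.1 ± 1.77 in overexpressing cells and 83.1 ± 3.08 in control cells. Pdk1 held 70.6% ± 0.660 of that sum in EGCG-treated cells, 25.0% ± 3.80 in overexpressing cells and 71.4% ± 0.427 in control cells (SD, n = 3 each). Pdk3 thereby held the largest share in overexpressing cells, 50.9% ± 3.84, against 19.0% ± 0.644 in EGCG-treated and 18.9% ± 0.609 in control cells. These sums and shares count all transcripts, coding or not. Protein-coding ones held 39.8%, 42.7% and 46.6% of Pdk1 TPM in EGCG-treated, overexpressing and control cells. For Pdk2 they held 79.6%, 80.6% and 87.9%, and for Pdk3 97.4%, 97.4% and 97.6%. The phosphatase genes Pdp1 and Pdp2 did not pass the test in any comparison. Summed kinase TPM over summed Pdp1 and Pdp2 TPM was 10.2 ± 0.430 in EGCG-treated cells, 2.85 ± 0.162 in overexpressing cells and 10.8 ± 0.688 in control cells, while the phosphatase sum itself was 7.72 ± 0.340, 7.39 ± 0.217 and 7.73 ± 0.392 TPM.

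**Figure D2:**
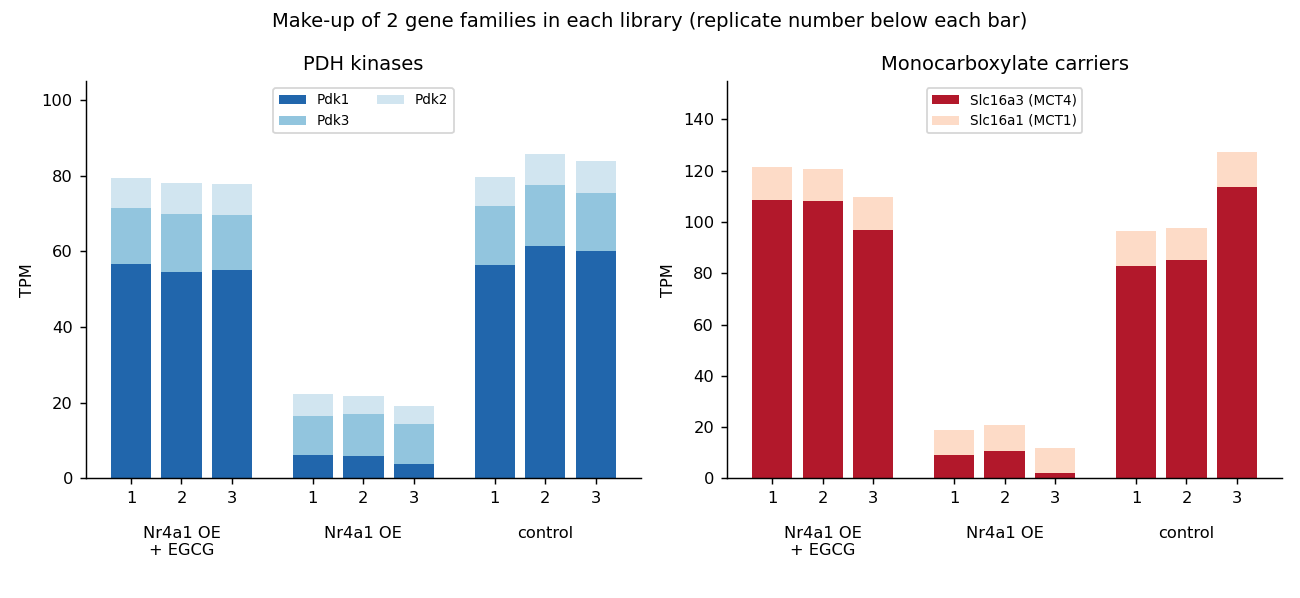
Stacked bars of TPM in each library for the kinase genes (left) and the plasma membrane carrier genes (right), with EGCG-treated overexpressing cells, overexpressing cells and control cells from left to right and the replicate number under each bar. The Pdk1 and Slc16a3 segments are short in all 3 overexpressing libraries. There Pdk3 holds the largest share of the kinases, and Slc16a3 holds 47.3%, 51.4% and 17.6% of the carriers.

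Ldha encodes the M subunit of lactate dehydrogenase, the form that predominates in glycolytic tissue. Its level was 430.7, 437.2 and 425.4 TPM in EGCG-treated cells, 106.5, 108.1 and 67.6 TPM in overexpressing cells, and 384.6, 387.9 and 412.8 TPM in control cells. All overexpressing libraries were far below the rest and replicate 3 was again the lowest, while EGCG-treated libraries were all above the control libraries. The log2 change was -2.09 ± 0.154 in overexpressing against control cells (SE; limma, adjusted p = 7.09e-06), a 4.20-fold lower mean, and 2.22 ± 0.154 with EGCG against overexpression alone (SE; adjusted p = 8.10e-06), a 4.58-fold higher mean.

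Ldhb encodes the H subunit, which predominates in heart and other oxidative tissue, and it alone among the 10 genes was higher in overexpressing cells. It was at 3.75, 4.64 and 2.66 TPM in EGCG-treated cells, 9.80, 9.13 and 8.58 TPM in overexpressing cells, and 2.62, 1.01 and 1.45 TPM in control cells. The 3 groups formed separate ranges, with EGCG-treated cells between the others and only just above the highest control library. The log2 change was 1.96 ± 0.213 in overexpressing against control cells (SE; limma, adjusted p = 6.16e-05), a 5.42-fold higher mean, and -1.14 ± 0.213 with EGCG against overexpression alone (SE; adjusted p = 0.00186). Ldha still held most of the lactate dehydrogenase TPM everywhere, 99.2% ± 0.215 in EGCG-treated cells, 90.8% ± 1.85 in overexpressing cells and 99.6% ± 0.219 in control cells (SD, n = 3 each). The Ldha to Ldhb ratio was 115, 94.2 and 160 in EGCG-treated, 10.9, 11.8 and 7.88 in overexpressing and 147, 384 and 285 in control libraries, where the low Ldhb makes it uneven.

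Slc16a3 encodes MCT4, the low-affinity carrier that exports lactate from glycolytic cells. It stood at 108.5, 108.0 and 97.0 TPM in EGCG-treated cells, 8.94, 10.8 and 2.07 TPM in overexpressing cells, and 83.0, 85.1 and 113.7 TPM in control cells. Overexpressing libraries were all far below the others, and replicate 3, the library with the highest Nr4a1 at 165.2 TPM, was well below the rest of its group. Whether the Nr4a1 and Slc16a3 levels of that library are linked was not tested. The log2 change was -3.72 ± 0.419 in overexpressing against control cells (SE; limma, adjusted p = 7.71e-05), a 12.9-fold lower mean, and 3.89 ± 0.419 with EGCG against overexpression alone (SE; adjusted p = 8.37e-05), a 14.4-fold higher mean. Without overexpressing replicate 3 the changes were -3.12 (adjusted p = 4.15e-06) and 3.28 (adjusted p = 3.25e-06).

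Slc16a1 encodes MCT1, the carrier of higher affinity that moves lactate and pyruvate either way. It was at 12.8, 12.5 and 12.6 TPM in EGCG-treated cells, 9.98, 10.2 and 9.69 TPM in overexpressing cells, and 13.3, 12.4 and 13.6 TPM in control cells. Here too the overexpressing libraries lay below the others without overlap, with log2 changes of -0.36 ± 0.0502 (SE; limma, adjusted p = 0.000255) and 0.32 ± 0.0502 (SE; adjusted p = 0.000750). Slc16a3 made up 89.2% ± 0.590 of the summed TPM of both carriers in EGCG-treated cells and 87.6% ± 1.58 in control cells (SD, n = 3 each). In the overexpressing libraries its share was 47.3%, 51.4% and 17.6%, so that replicate 3 differed widely from the other two.

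Within-library measures were tested in 4 cases: the Pdk1, Ldha and Slc16a3 shares and the summed kinase TPM over Pdha1 TPM, which was 3.31 ± 0.146 in EGCG-treated, 1.02 ± 0.0386 in overexpressing and 3.58 ± 0.261 in control cells (SD, n = 3 each). In overexpressing against control cells, and in EGCG-treated against overexpressing cells, no libraries of the groups overlapped for any of these. The exact two-sided permutation p was 0.1 each time, the smallest that 3 against 3 libraries allow (0.15 adjusted over 12 tests). For EGCG-treated against control cells the exact p was 0.2 for the 3 shares (0.218 adjusted) and 0.3 for the kinase ratio. With protein-coding transcripts alone the kinase ratio differed by -1.42 in overexpressing against control cells, in place of -2.56, and by 1.07 with EGCG against overexpression alone, in place of 2.29.

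Because Pdk1, Ldha, Slc16a3 and Ldhb moved most, their promoters are shown, from 250 bases before to 50 after the annotated start, 5′ to 3′ on the gene's strand. The sequences are RefSeq's on build GRCm38.p6, an older build than the GRCm39 the authors name. Capitals mark the core of the element that hypoxia-inducible factors bind, searched as ACGTG or GCGTG on both strands with overlapping matches merged. The windows are chr2:71872974-71873273 on the plus strand for Pdk1, chr7:46845554-46845853 on the plus strand for Ldha, chr11:120948817-120949116 on the plus strand for Slc16a3 and chr6:142507908-142508207 on the minus strand for Ldhb.
Pdk1: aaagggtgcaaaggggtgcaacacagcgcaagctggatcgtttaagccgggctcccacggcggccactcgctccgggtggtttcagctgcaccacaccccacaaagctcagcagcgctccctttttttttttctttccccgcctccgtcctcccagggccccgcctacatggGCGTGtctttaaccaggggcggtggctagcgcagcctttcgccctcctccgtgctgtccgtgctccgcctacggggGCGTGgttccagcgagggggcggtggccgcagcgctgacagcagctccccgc
Ldha: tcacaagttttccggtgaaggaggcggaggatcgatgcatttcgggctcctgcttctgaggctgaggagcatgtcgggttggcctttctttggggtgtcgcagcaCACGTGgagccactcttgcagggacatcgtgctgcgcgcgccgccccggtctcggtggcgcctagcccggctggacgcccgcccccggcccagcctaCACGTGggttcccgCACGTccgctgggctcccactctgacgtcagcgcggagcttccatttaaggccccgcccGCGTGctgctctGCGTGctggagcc
Slc16a3: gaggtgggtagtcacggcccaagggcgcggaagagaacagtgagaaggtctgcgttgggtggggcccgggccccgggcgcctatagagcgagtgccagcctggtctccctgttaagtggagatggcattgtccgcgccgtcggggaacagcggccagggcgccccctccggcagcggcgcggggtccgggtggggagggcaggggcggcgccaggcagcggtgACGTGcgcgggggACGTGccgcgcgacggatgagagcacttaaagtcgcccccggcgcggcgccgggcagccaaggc
Ldhb: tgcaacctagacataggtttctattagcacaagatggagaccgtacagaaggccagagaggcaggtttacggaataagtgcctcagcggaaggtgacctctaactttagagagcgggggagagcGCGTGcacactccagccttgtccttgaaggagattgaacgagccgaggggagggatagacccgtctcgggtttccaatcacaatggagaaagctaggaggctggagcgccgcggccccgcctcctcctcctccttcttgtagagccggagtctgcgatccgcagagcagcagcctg

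Pdk1 had 2 cores, at -78 to -74 and across the start at -2 to 3, counted from the start with no position 0. Ldha had 5, among them the palindrome CACGTG at -145 to -140 and at -48 to -43. Slc16a3 had 2, both ACGTG, at -27 to -23 and -14 to -10, and Ldhb had 1, at -126 to -122. A core stood in 43.8% of all 32851 RefSeq windows and at least 2 in 17.3%. ACGTG alone stood in 19.6% of windows, and at least 2 copies of it in 2.69%. All 10 genes had a window, 14 in all, of which 11 held a core, against 43.8% of all windows. The windows compared were not matched for base composition. The second windows of Pdk1, Pdk2 and Mpc1 held none. The window farthest upstream held a core in each of the 10, with 4 in Slc16a1, Pdha1 and Pdk3 and 1 in Pdk2, Pdk4 and Mpc1. The element to which Nr4a1 binds as a monomer, searched as AAAGGTCA on both strands, was in none of the 14 windows and in 1.51% of all windows. Such matches describe letters only, and the absence of one says nothing of binding elsewhere. For Slc16a3 the window belongs to the start of transcript Slc16a3-202, while the more abundant Slc16a3-201 starts 587 bases upstream in GENCODE's annotation of the same assembly, outside the window. The Ldhb window belongs to Ldhb-201, while Ldhb-202 starts 12309 bases downstream. Ldhb-202 held 49.3%, 58.3% and 48.4% of Ldhb TPM in EGCG-treated, overexpressing and control cells.

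Pdha1 and Mpc1 act at the entry to mitochondrial oxidation and differed little. Pdha1 was at 23.5, 22.9 and 24.8 TPM in EGCG-treated cells, 21.7, 20.8 and 19.6 TPM in overexpressing cells, and 24.1, 23.7 and 21.9 TPM in control cells. Overexpressing libraries lay just under the lowest of the other groups. It was lower in overexpressing than in control cells by a log2 change of -0.16 ± 0.0587 (SE; limma, adjusted p = 0.0415) and higher with EGCG than with overexpression alone by 0.19 ± 0.0587 (SE; adjusted p = 0.0235). These calls were lost in 9 and 5 of 18 other settings, among them the fits without overexpressing replicate 3 (adjusted p = 0.149 and 0.0914). Map3k15 overlaps Pdha1 on the other strand at 29.2, 29.7 and 25.0 TPM in EGCG-treated, overexpressing and control cells. The sources used here do not say how strand was used in the counting, so reads of that pair may be mixed.

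Mpc1 was at 105.4, 107.9 and 108.5 TPM in EGCG-treated cells, 115.0, 115.1 and 108.1 TPM in overexpressing cells, and 116.7, 120.8 and 119.0 TPM in control cells. Control libraries were the highest, and the other groups overlapped. Its log2 difference was -0.08 in overexpressing against control cells (limma, adjusted p = 0.195; 95% interval -0.18 to 0.03) and -0.07 with EGCG against overexpression alone (adjusted p = 0.235; interval -0.18 to 0.04). Under 3 other scalings it passed as lower in overexpressing than in control cells, by -0.19 with median-ratio scaling (adjusted p = 0.00611), -0.32 with quantile normalization (adjusted p = 0.000642) and -0.16 with nuclear protein-coding genes alone (adjusted p = 0.0136). The EGCG difference turned positive under these scalings, 0.03, 0.15 and 0.08 (adjusted p = 0.578, 0.0351 and 0.177). Mpc1-ps, a pseudogene copy of Mpc1 by its annotated name, was listed at 30.5, 29.5 and 30.6 TPM in EGCG-treated, overexpressing and control cells. The sequences of the copies were not compared, and the division of reads between them is uncertain. The partner subunit Mpc2 was at 23.7 ± 3.03 TPM in EGCG-treated, 35.2 ± 2.69 TPM in overexpressing and 18.9 ± 5.78 TPM in control cells. Thus Mpc1 over Mpc2 was 4.59 ± 0.682, 3.22 ± 0.345 and 6.62 ± 1.73 in that order.

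**Figure D3:**
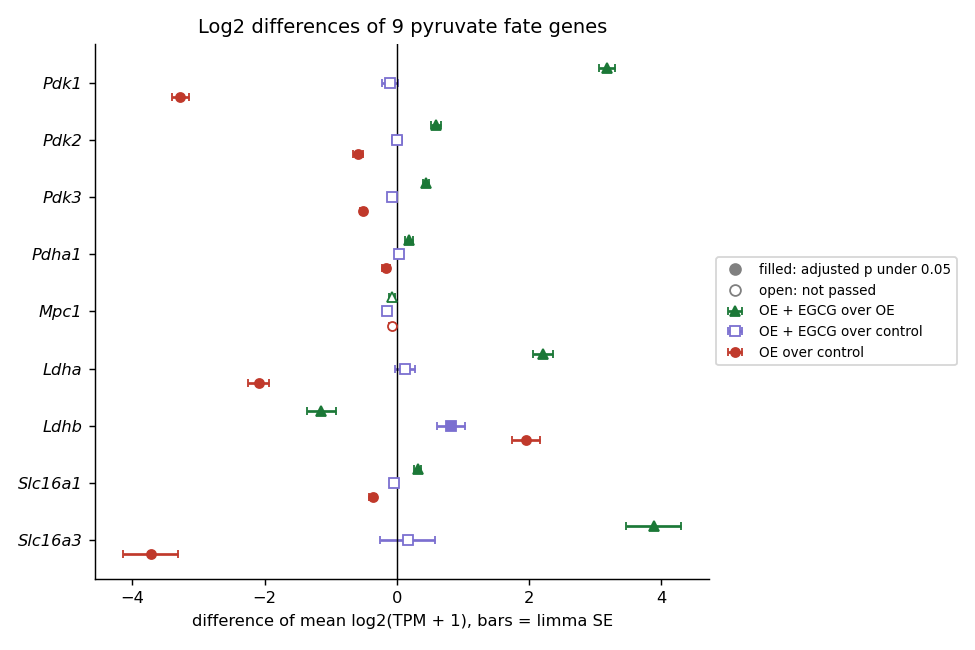
Differences of mean log2(TPM + 1) for the 9 tested genes (horizontal axis, bars are limma SE). Triangles are EGCG-treated over overexpressing cells, squares EGCG-treated over control cells and circles overexpressing over control cells, and filled symbols have an adjusted p under 0.05. Circles and triangles lie on opposite sides of 0 for every gene except Mpc1, and only the square of Ldhb is filled.

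Cells with both Nr4a1 and EGCG were also set against untransfected cells, which asks how far the levels of the treated cells lie from those of control cells. Of the 9 genes 1 passed, against 18.2% of all tested genes, 11.1% as higher and 7.10% as lower. This was Ldhb, higher by a log2 change of 0.82 ± 0.213 (SE; limma, adjusted p = 0.0308; 95% interval 0.34 to 1.30). The call was lost in 5 of 18 other settings, with adjusted p up to 0.0927, among them the fits without control replicate 2 (0.0886) or 3 (0.0507) and without EGCG-treated replicate 1 (0.0926) or 2 (0.0927). Libraries did not overlap for Ldhb and Ldha on the higher side and Mpc1 on the lower side, against 34.8% of all tested genes, 21.0% higher and 13.8% lower.

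For the other genes the interval of the difference is given, which like the p-values reflects only the spread among these libraries. The 95% interval on the log2 scale ran from -0.37 to 0.18 for Pdk1, from -0.17 to 0.17 for Pdk2 and from -0.17 to 0.04 for Pdk3. It ran from -0.22 to 0.47 for Ldha, from -0.78 to 1.11 for Slc16a3 and from -0.16 to 0.07 for Slc16a1. The interval of Slc16a3 was the widest of the 9. Because limma's SE pools all groups, this interval also carries the spread of the overexpressing libraries, which were at 8.94, 10.8 and 2.07 TPM. The Ldha interval does so too, with overexpressing libraries at 106.5, 108.1 and 67.6 TPM. All EGCG-treated libraries lay above the control libraries for Ldha. For Pdha1 the interval was -0.10 to 0.16. Mpc1 had an interval of -0.25 to -0.04 but an adjusted p of 0.0611, and passed as lower with median-ratio scaling (adjusted p = 0.0415), quantile normalization (0.0419) or protein-coding transcripts alone (0.0470).

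The deposited values are per transcript, so the pattern could be followed below the gene. Pdk1-201, the only protein-coding transcript among the 8 listed for Pdk1, held 39.8% of the gene's TPM in EGCG-treated cells, 42.7% in overexpressing cells and 46.6% in control cells. It was at 22.0 ± 0.970, 2.27 ± 0.675 and 27.6 ± 1.61 TPM in these groups (SD, n = 3 each), with all overexpressing libraries below the others. Its EGCG-treated libraries, at 21.18 to 23.09 TPM, all lay below the control libraries, at 25.75 to 28.57 TPM. The processed transcripts Pdk1-206, with 14.8, 1.36 and 17.9 TPM, and Pdk1-208, with 13.6, 1.30 and 9.76 TPM, carried most of the rest. Of Slc16a3, transcript 201 was at 50.9 ± 2.37 TPM in EGCG-treated, 2.47 ± 1.75 TPM in overexpressing and 59.5 ± 6.46 TPM in control cells. The EGCG-treated libraries of this transcript again all lay below the control libraries. Slc16a3-202 was at 13.9 ± 2.92 TPM in EGCG-treated and 5.25 ± 1.37 TPM in control cells, which did not overlap, and at 1.31 ± 1.02 TPM in overexpressing cells.

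Ldhb had 2 transcripts of weight, and their division is poorly determined at this level. Ldhb-201 was at 1.98, 2.61 and 1.01 TPM in EGCG-treated, 5.0, 3.88 and 2.52 TPM in overexpressing and 2.62, 0 and 0 TPM in control libraries. Ldhb-202, which starts 12309 bases downstream, was at 1.77, 2.03 and 1.65 TPM in EGCG-treated, 4.73, 5.25 and 6.06 TPM in overexpressing and 0, 1.01 and 1.45 TPM in control libraries. A value listed at 0 beside a partner well above 0 may be a failed estimate, so the sum per gene is the safer reading. Ldha was carried by Ldha-202, with 416.6, 90.6 and 373.9 TPM in EGCG-treated, overexpressing and control cells.

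**Figure D4:**
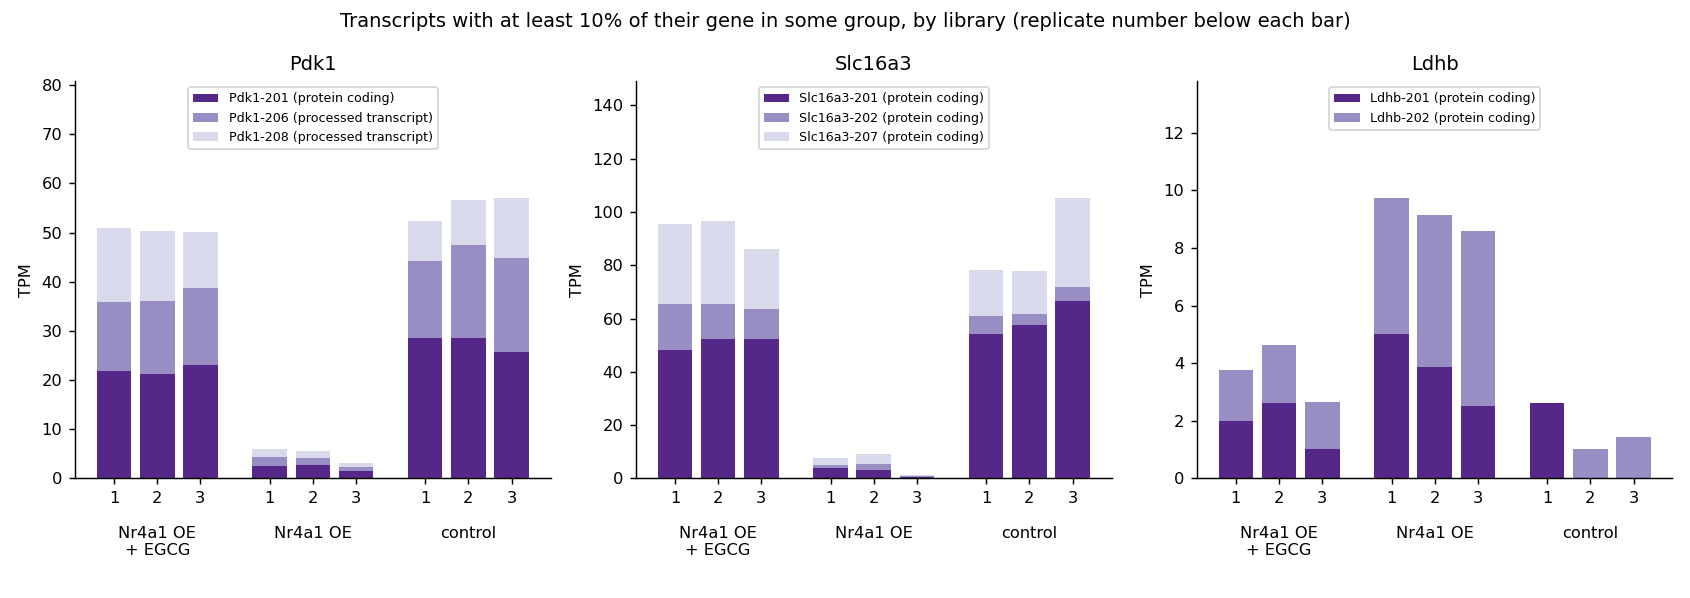
TPM of the transcripts that hold at least 10% of Pdk1, Slc16a3 or Ldhb in some group, stacked for each library, with EGCG-treated overexpressing cells, overexpressing cells and control cells from left to right. Every Pdk1 and Slc16a3 transcript shown is low in overexpressing cells, and in each control library Ldhb rests on 1 of its 2 transcripts.

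The remaining genes of pyruvate metabolism did not move as a block. Of 30 listed, 22 were tested. In overexpressing against control cells 7 were higher, 7 lower and 8 did not pass, with a median log2 difference of -0.04 against 0.10 over all tested genes, of which 38.2% were higher and 21.3% lower (59.5% together). With EGCG against overexpression alone 8 were higher, 6 lower and 8 did not pass, with a median of 0.03 against -0.09 over all tested genes, of which 18.8% were higher and 34.1% lower (53.0% together). In EGCG-treated against control cells Pcx and Cs were higher and 20 did not pass, with a median of -0.01 against 0.02 over all tested genes, of which 18.2% passed.

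All 4 listed core genes of the pyruvate dehydrogenase complex, Pdhb, Dlat, Dld and Pdhx, were higher in overexpressing than in control cells, as were 38.2% of all tested genes. With EGCG 3 of them were lower than with overexpression alone, as were 34.1% of all tested genes, while Dlat did not pass. Pdhb, the E1 beta subunit that pairs with the product of Pdha1, was at 32.6 ± 1.27 TPM in EGCG-treated, 46.1 ± 1.18 TPM in overexpressing and 36.4 ± 1.86 TPM in control cells (SD, n = 3 each). Its log2 change was 0.33 ± 0.0544 in overexpressing against control cells (SE; limma, adjusted p = 0.000689) and -0.49 ± 0.0544 with EGCG against overexpression alone (adjusted p = 0.000102). Pdhb over Pdha1 was 1.38 ± 0.0477, 2.23 ± 0.151 and 1.57 ± 0.144 in EGCG-treated, overexpressing and control cells. Dld, the E3 subunit shared with other dehydrogenases, was at 18.1 ± 1.65, 27.9 ± 2.19 and 19.2 ± 1.55 TPM in these groups. Dlat, the E2 subunit, and Pdhx, the E3-binding protein, differed in overexpressing against control cells by 0.33 and 0.21 on the log2 scale (adjusted p = 0.00498 and 0.0198). Both calls were lost with median-ratio scaling (adjusted p = 0.0545 and 0.180) and quantile normalization (0.11 and 0.259). The phosphatase regulatory subunit gene Pdpr did not pass in any comparison, nor did Lias, Lipt1 and Lipt2, which supply the complex with its lipoyl groups.

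The 3 tested genes of the list of monocarboxylate carriers and chaperones, Bsg, Emb and Slc16a7, were all lower in overexpressing than in control cells, as were 21.3% of all tested genes, and higher with EGCG than with overexpression alone, as were 18.8%. Basigin, from Bsg, brings MCT1 and MCT4 to the plasma membrane. Bsg was at 416.9 ± 9.01 TPM in EGCG-treated, 207.3 ± 6.08 TPM in overexpressing and 447.9 ± 15.2 TPM in control cells (SD, n = 3 each), with log2 changes of -1.11 ± 0.0537 in overexpressing against control cells (SE; limma, adjusted p = 9.31e-07) and 1.00 ± 0.0537 with EGCG against overexpression alone (adjusted p = 1.73e-06). It changed less than Slc16a3, so Bsg per summed TPM of both carriers was 3.57 ± 0.248 in EGCG-treated, 12.8 ± 3.80 in overexpressing and 4.24 ± 0.558 in control cells. Embigin, from Emb, was lower in overexpressing than in control cells by a log2 change of -0.30 (adjusted p = 0.000399), and the third carrier tested, Slc16a7, which encodes MCT2, by -0.21 (adjusted p = 0.0423).

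Among enzymes that make or use pyruvate, Pkm, the muscle-type pyruvate kinase gene, was at 700.2 ± 24.3 TPM in EGCG-treated, 292.8 ± 24.1 TPM in overexpressing and 640.3 ± 12.9 TPM in control cells (SD, n = 3 each). Its log2 changes were -1.13 in overexpressing against control cells (limma, adjusted p = 3.15e-06) and 1.26 with EGCG against overexpression alone (adjusted p = 2.19e-06). Me1, cytosolic malic enzyme, was lower in overexpressing than in control cells by -0.85 (adjusted p = 1.06e-05) and higher with EGCG by 0.69 (adjusted p = 4.74e-05). Pck2 and Cs, which use mitochondrial oxaloacetate, were higher in overexpressing than in control cells by 0.62 and 0.43 (adjusted p = 0.00175 and 9.74e-05). Pcx, pyruvate carboxylase, differed from the rest. It was at 15.9 ± 0.322 TPM in EGCG-treated cells, 12.9 ± 0.244 TPM in overexpressing cells and 12.8 ± 0.0874 TPM in control cells, higher with EGCG than in overexpressing cells by 0.28 (adjusted p = 0.000564) and than in control cells by 0.30 (adjusted p = 0.00484).

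**Figure D5:**
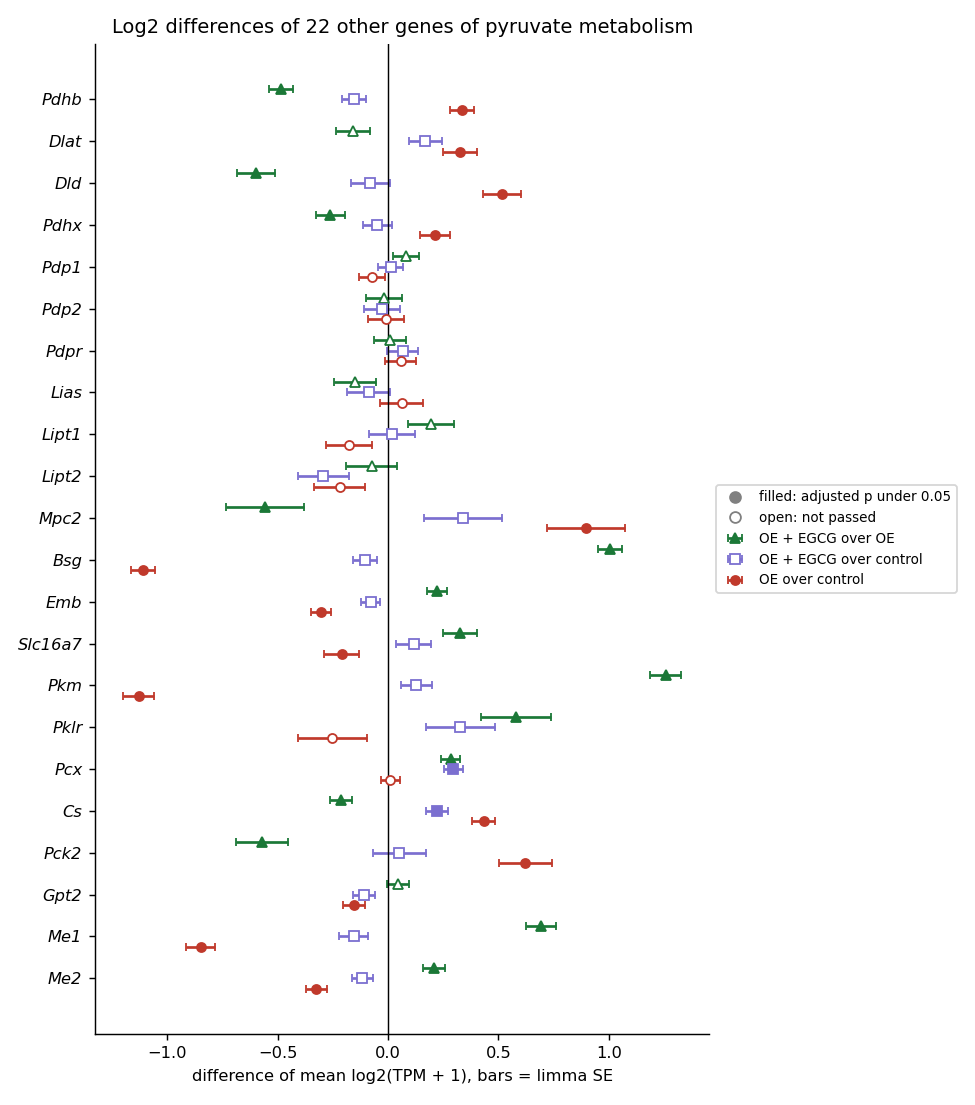
Differences of mean log2(TPM + 1) for the 22 other tested genes of pyruvate metabolism (horizontal axis, bars are limma SE), with triangles for EGCG-treated over overexpressing cells, squares for EGCG-treated over control cells and circles for overexpressing over control cells, filled where the adjusted p is under 0.05. Bsg, Pkm and Me1 lie farthest to the left in overexpressing over control cells and Mpc2, Pck2 and Dld farthest to the right, and of the squares those of Pcx and Cs are filled.

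Ldha and Slc16a1 belong to the genes that mature beta cells keep low. Of 19 others of that kind, 8 were tested. In overexpressing against control cells 3 were higher, with Acot7 leading, 3 were lower, with Ndrg2 leading, and 2 did not pass, where 38.2% of all tested genes were higher and 21.3% lower. With EGCG against overexpression alone 4 were higher, 2 lower and 2 did not pass, where 18.8% of all tested genes were higher and 34.1% lower. In EGCG-treated against control cells none of the 8 passed, where 18.2% of all tested genes did (limma, adjusted p under 0.05). Ndrg2, a stress-responsive gene, was at 7.66 TPM in EGCG-treated, 1.75 TPM in overexpressing and 9.42 TPM in control cells. Acot7, an acyl-CoA thioesterase, was at 10.6, 16.6 and 9.40 TPM in these groups.

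Over the 9 libraries the profiles most like those of the tested genes were found among 6615 protein-coding genes by Pearson's r on log2(TPM + 1). The 9 points fall into the 3 groups, so r reflects shared group differences and is given as a description. Closest to Pdk1 were Fam162a, the glucose transporter gene Slc2a1 and Prelid2, each with r = 0.999. Closest to Ldha were Bnip3, a mitophagy receptor gene (r = 0.999), Pfkl, the liver-type phosphofructokinase gene (r = 0.998), and Aldoa, aldolase A (r = 0.997). Slc16a3 was closest to Pfkl (r = 0.996) and Bnip3 (r = 0.991), so both stood among the first 3 for Ldha and for Slc16a3. Ldhb was closest to Fam20c (r = 0.982) and Ltn1 (r = 0.980).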

How the data were processed

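RNA of MIN6 cells was sequenced in 9 libraries made with a stranded total RNA kit, per the labels' protocols. The authors deposited TPM per Ensembl transcript. Per the submitters' processing notes they used bcl2fastq 2.20, FastQC 0.11.9, cutadapt 2.8, STAR 2.7.1a, RSEM 1.2.31 and build GRCm39. The sources used here give neither annotation release nor strand setting. RSEM shares reads between similar copies, and TPM is relative, so abundant RNAs that rise pull other values down.

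GENCODE M21, which describes an older build, gave gene names and types for 138346 of 142435 transcript IDs (97.1%); the 4089 others held 18.0% to 20.6% of a library's TPM. TPM was summed per gene. No other sample columns were present (0). limma 3.58.1 in R 4.3.3 (lmFit, contrasts, eBayes with trend) was run on log2(TPM + 1) with all 9 libraries, two-sided, with Benjamini-Hochberg adjustment at 0.05 over the 11950 genes that reached 1 TPM in 3 or more libraries. Count models do not apply to TPM. Errors of levels are SD over 3 libraries. The fit was tested on simulated data. Ratios and promoters used Python 3.11.15, pandas 2.3.3, scipy 1.17.1 and matplotlib 3.10.9.

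The 10 genes and all lists were chosen with earlier results of these data known. Named beside the 10 are listed genes with the smallest adjusted p (up to 4 a list, any in lists of at most 8), pseudogene copies, transcripts with at least 10% of their gene, and the 3 most similar protein-coding genes of at least 5 TPM, of which some are not reported here. Alternatives were the pseudocount, the filter, scalings, protein-coding transcripts, the libraries in the fit, the variance trend, a replicate block and leaving out each library; summing Mpc1 with its pseudogene was added after seeing the data.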

Additional observations from a re-analysis of the deposited data

How the results depend on the processing

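Of 489 recomputed log2 differences of the 9 genes, 453 kept direction and side of the threshold, 19 lost the call, 6 gained it and 11 turned sign. The calls of Pdk1, Pdk2, Pdk3, Ldha, Slc16a1 and Slc16a3, and that of Ldhb, in the comparisons with overexpressing cells held under all 18 settings. The cause of the changes that follow was not tested. In EGCG-treated against control cells the number of the 9 genes called was 1, and became 2 with median-ratio scaling, quantile normalization or protein-coding transcripts only, 0 with the 6 libraries of the comparison, and 0 to 1 without single libraries; over all genes it was 2172, and became 4775 without the filter on low values, where more genes are tested, 895 with 6 libraries, and 735 to 3239 without single libraries. For the other comparisons, 7 to 8 of the genes were called without single libraries in each, and all genes numbered 6286 to 7263 in overexpressing against control cells (12395 without the filter, 7106 with it) and 5411 to 6787 with EGCG against overexpression alone.

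The sign changes were as follows. With EGCG against overexpression alone, Mpc1 was at 0.0327 (median-ratio scaling), 0.147 (quantile normalization) and 0.0808 (nuclear protein-coding genes alone). In EGCG-treated against control cells Pdk2 was at -0.0127, -0.0237 and -0.127 with median-ratio scaling, quantile normalization and protein-coding transcripts only, and -0.0372 to 0.0358 without single libraries; Slc16a1 was at 0.0156 with nuclear protein-coding genes alone, and Pdha1 ran from -0.0104 to 0.0542 without single libraries. The median difference of all tested genes was 0.10, -0.09 and 0.02 as deposited and -0.0020, -0.0019 and 0.0084 after median-ratio scaling, in the order overexpressing against control, EGCG-treated against overexpressing and EGCG-treated against control.

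With protein-coding transcripts only, the Pdk1 share differed by -41.8 percentage points in overexpressing against control cells (-46.4 with all transcripts), by 37.8 with EGCG against overexpression alone (45.6) and by -3.93 in EGCG-treated against control cells (-0.715); the kinase to Pdha1 ratio differed by -1.42 and 1.07 in the first 2 of these. Without single libraries the differences in these 3 comparisons ran from -47.5 to -44.2, 43.4 to 46.8 and -1.02 to -0.367 for the Pdk1 share, from -9.42 to -7.68, 7.26 to 9.002 and -0.540 to -0.314 for the Ldha share, from -55.2 to -38.3, 39.9 to 56.8 and 0.889 to 2.44 for the Slc16a3 share, and from -2.70 to -2.44, 2.24 to 2.38 and -0.410 to -0.150 for the kinase ratio.

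The labels do not say whether replicate numbers pair the libraries. Deviations of same-numbered libraries correlated by -0.021 to 0.214 over 9 pairs, and those of different numbers by -0.238 to 0.121 over 18. These ranges overlap, which does not settle the pairing. With the replicate number as a block, 7, 8 and 1 of the 9 genes were called, and 6723, 5882 and 1221 of all genes. Depth is unknown from TPM, and levels of 1 to 3 TPM, such as Ldhb in control cells, are the least certain.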
